A study of Rattus norvegicus with 9 samples.

Results

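The miRNAs miR-150, miR-223, miR-142 and miR-342 are used as marks of white blood cells, and their reads in exosome RNA were followed here across 9 small RNA libraries. The members were taken by name, with any arm suffix, from the deposited table of mature miRNAs, and 6 of its 201 entries matched: miR-150-5p, miR-223-3p, miR-223-5p, miR-142-5p, miR-342-3p and miR-342-5p. miR-142-3p was met only as tags labelled hairpin and is given from those. The RNA came from exosomes, which are small vesicles shed by cells, here those of primary peritoneal macrophages obtained by lavage of untreated rat and held in RPMI-1640 with 10% FBS. There were 3 groups of 3 libraries. In LPS+AS-IV the cells were given astragaloside IV, a plant saponin from Astragalus, for 24 h at 150 µM. They were then given lipopolysaccharide (LPS) for 6 h at 100 ng/ml. In LPS they were given LPS alone, for 6 h at 100 ng/ml, and in Control DMSO alone, for 24 h at 0.1%. LPS and astragaloside IV were also dissolved in DMSO, so vehicle was used in each group, but how long it was present is listed for Control alone. Separate animals or cultures per replicate are not named in the labels, and a p-value therefore measures the spread between these libraries, which may be technical. In bulk RNA, fewer vesicles from a cell type and less of a miRNA per vesicle cannot be told apart, and vesicles of the added serum were not told apart from those of the cells.

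A miRNA guides Argonaute to mRNAs that pair with its seed, bases 2 to 8. miR-150 is abundant in mature lymphocytes, where it represses the transcription factor Myb. miR-223 is abundant in neutrophils and monocytes and falls as monocytes become macrophages, miR-142 is present in nearly all blood cell lineages, and miR-342 is found in lymphoid and myeloid cells.

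The mature sequences below show which tags can be told apart, with the seed in capitals. RefSeq (build GRCr8) held 6 of the 7 arms, and miR-150-5p is shown as its most abundant tag in the deposited files, in DNA letters.
miR-150-5p: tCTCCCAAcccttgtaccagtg
miR-223-3p: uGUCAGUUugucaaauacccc
miR-223-5p: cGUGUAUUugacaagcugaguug
miR-142-3p: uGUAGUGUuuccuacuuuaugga
miR-142-5p: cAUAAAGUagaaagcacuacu
miR-342-3p: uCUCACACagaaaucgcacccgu
miR-342-5p: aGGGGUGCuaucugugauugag
No seed was shared among these arms, and each RefSeq seed occurred in 1 rat miRNA of that table. In GRCr8 the gene Mir223 lies at chrX:65151383-65151492, inside the span of the long noncoding RNA gene LOC120099372. Mir142 lies at chr10:73055104-73055190, inside the span of the protein-coding gene Tspoap1, and Mir342 at chr6:133329655-133329753, inside the span of the protein-coding gene Evl. Mir150 lies at chr1:104741487-104741571, where no other listed gene overlapped it. Whether these positions are exonic or intronic was not looked up.

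Assigned small RNA reads numbered between 3484099 and 9527483 per library, of which the table of mature miRNAs held 15426, 68845 and 546599 in LPS+AS-IV, 25483, 65715 and 61579 in LPS, and 42178, 30861 and 75528 in Control. LPS+AS-IV 3 therefore stood apart in miRNA depth and LPS+AS-IV 1 was the shallowest. A library without reads of a miRNA may have held up to 3 of them (the floor), equal to 214 CPM in the shallowest library, LPS+AS-IV 1, and 5.93 CPM in the deepest, LPS+AS-IV 3, where CPM is counts per 1000000 reads after TMM scaling. Reads were amplified without molecular identifiers and are not independent molecules, so such floors and every interval given here cover counting error only.

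miR-150-5p was the most abundant member by far and the only member of the table with reads in all 9 libraries. It had 219, 2399 and 22204 reads in LPS+AS-IV, 650, 1596 and 1920 reads in LPS, and 1182, 1241 and 2303 reads in Control. Its mean share of the table over the libraries was 2.99%, the 9th highest of 201. In CPM it stood at 15618, 36160 and 43865 in LPS+AS-IV, 23127, 27019 and 30441 in LPS, and 25233, 36652 and 30605 in Control. The LPS+AS-IV libraries spanned the whole range of the other groups, so the 3 groups overlapped. The group means were 31881 ± 14601 CPM in LPS+AS-IV, 26862 ± 3659 CPM in LPS and 30830 ± 5713 CPM in Control (SD, n = 3 each).

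miR-223-3p, the myeloid member, was far lower in the table. It had 0, 99 and 944 reads in LPS+AS-IV, 0, 0 and 219 reads in LPS, and 36, 11 and 113 reads in Control. Its mean share was 0.105%, 60th of 201, and the table listed it at 0 in 3 libraries, of which 1 was LPS+AS-IV and 2 were LPS. The other arm, miR-223-5p, the strand that is mostly discarded, had 25 reads in all, of which 23 were in LPS 1. miR-342-3p had a mean share of 0.0721% and ranked 70th, miR-342-5p 0.0299% and 96th, miR-142-5p 0.0229% and 107th, and miR-223-5p 0.0103% and 133rd. Each of these was at 0 in at least 3 libraries, so apart from miR-150-5p the order of the members did not stand clear of their spread between libraries.

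**Figure D1:**
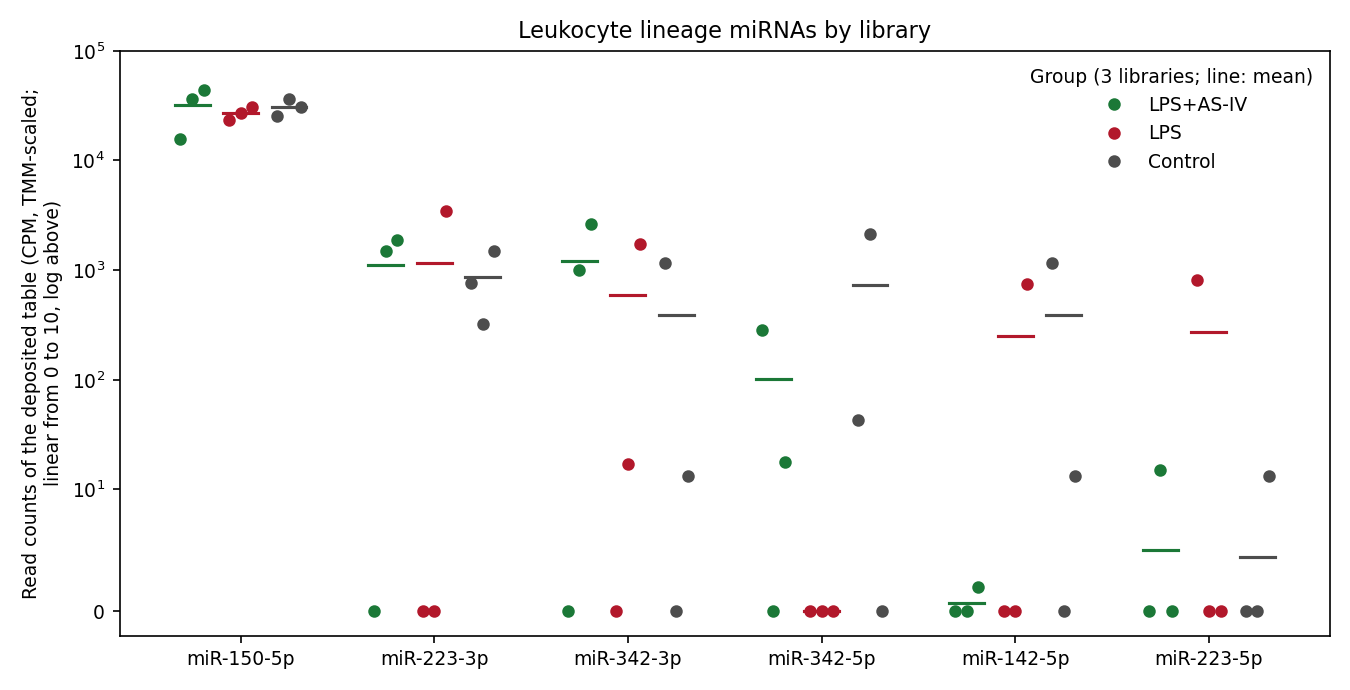
Level of each of the 6 members in the deposited table by library, as TMM-scaled CPM (linear from 0 to 10 and logarithmic above), with points for libraries and lines for the means of 3 libraries. miR-150-5p lies at 15618 CPM or higher in all 9 libraries, while every other member has libraries at 0.

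The zeros of miR-223-3p did not mean that its sequence was missing. The files of single libraries list every distinct tag with 1 deposited label (mature miRNA, miRNA hairpin, piRNA or Rfam family), and the table counts only mature labels. When tags that begin with the first 16 bases of the miRNA were gathered whatever their label, a count chosen after the data were seen, miR-223-3p had 7686 reads, 5.41 times its 1422 reads in the table. It was then present in all 9 libraries, with 24 reads in LPS+AS-IV 1, 255 in LPS 1 and 154 in LPS 2, the libraries that the table lists at 0. Of the gathered reads 18.5% were labelled mature, 20.1% hairpin and 61.4% as 1 Rfam family.

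miR-150-5p was labelled quite differently. Of its 40856 gathered reads 82.5% were labelled mature, 17.1% hairpin and 0.394% Rfam, so that gathering raised its count 1.21 times. Over the 89 miRNA names with at least 500 gathered reads, the median was 44.4% mature and 1.68% Rfam, and 5 names had more than 50% under Rfam labels. By gathered reads miR-223-3p held a mean of 0.424% of all gathered miRNA reads and ranked 33rd of 180 names, while miR-150-5p held 2.005% and ranked 13th.

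**Figure D2:**
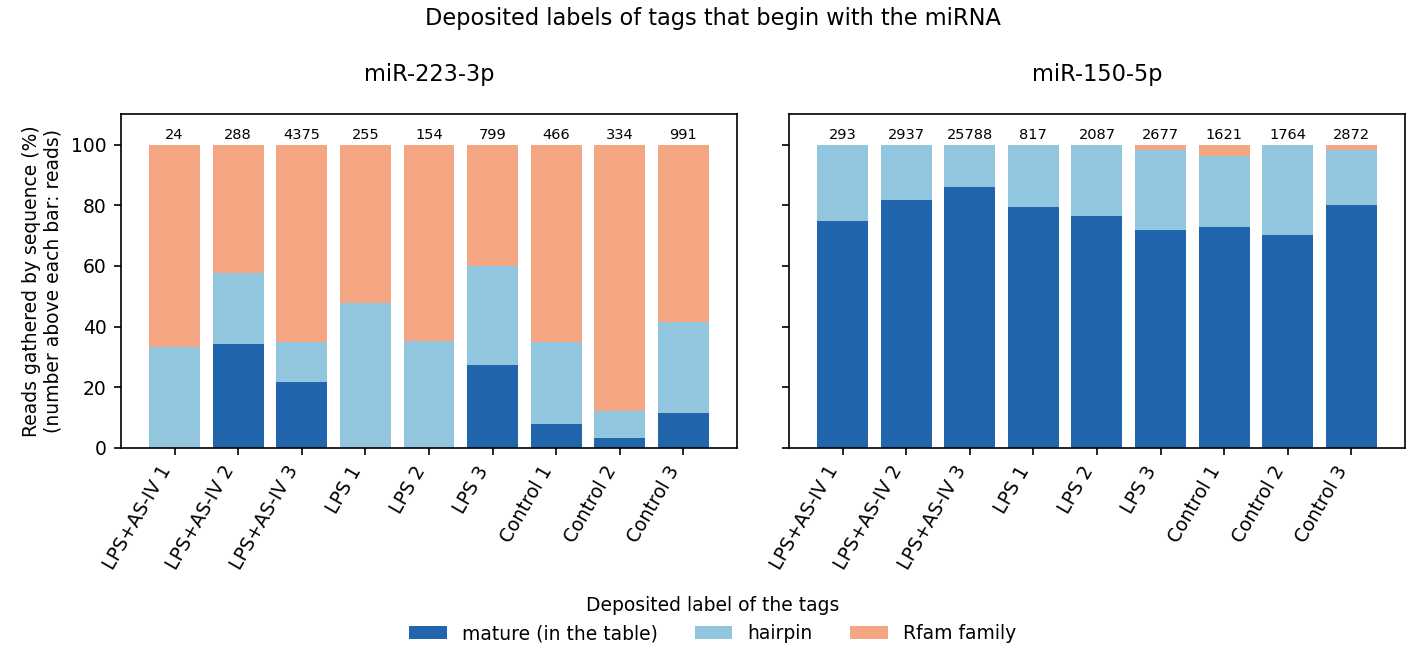
Share of gathered reads by deposited label (mature, hairpin or Rfam family) in each library for miR-223-3p and miR-150-5p, with the number of reads above each bar. For miR-223-3p the mature label holds 0% in LPS+AS-IV 1, LPS 1 and LPS 2 and at most 34.4% in any library, against at least 70.4% for miR-150-5p.

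The label followed the 3′ end of the tag. The most abundant tags of miR-223-3p are shown because each of them differs from the next only at that end, with bases that are not in the RefSeq hairpin in capitals.
miR-223-3p, 21 nt, mature label: tgtcagtttgtcaaatacccc
miR-223-3p, 22 nt, hairpin label: tgtcagtttgtcaaatacccca
miR-223-3p, 23 nt, Rfam label: tgtcagtttgtcaaataccccaa
miR-223-3p, 23 nt with an added T, Rfam label: tgtcagtttgtcaaataccccaT
miR-223-3p, 24 nt with an added A, mature label: tgtcagtttgtcaaataccccaaA
The RefSeq hairpin around the mature arm, which is in capitals here, is the ruler for these ends.
Mir223 hairpin stretch: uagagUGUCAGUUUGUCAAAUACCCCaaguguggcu
The tag of 21 nt, identical to the RefSeq arm, had 843 reads in 6 libraries. The hairpin continues with 2 A bases after it, so the tag of 22 nt, with 1389 reads in 9 libraries, and the tag of 23 nt ending in AA, with 1121 reads in 7 libraries, matched the hairpin to their last base, yet neither was counted in the table. The tag with an added T was the largest, with 2633 reads in 9 libraries, 34.2% of the miRNA, while the tag of 24 nt with an added A, which departs from the hairpin, was counted as mature (534 reads in 3 libraries).

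Over its gathered reads miR-223-3p matched the hairpin to the last base in 47.5%, ended in 1 or 2 untemplated T bases in 35.1%, and ended in untemplated A bases in 7.94%. Among 70 miRNAs with a RefSeq hairpin and enough reads, the median was 88.4% templated and 1.20% with a T tail, and miR-223-3p ranked 5th by T tail. The T tail varied widely between libraries, at 62.5%, 13.5% and 47.5% in LPS+AS-IV, 6.67%, 0.649% and 31.5% in LPS, and 38.2%, 25.4% and 3.33% in Control. The 95% Wilson intervals were widest in LPS+AS-IV 1, at 42.7% to 78.8% from 24 reads, and the 3 groups overlapped. A further form, 1 base shorter at the 5′ end, gtcagtttgtcaaataccccat, had 962 reads, of which 961 were in LPS+AS-IV 3. With its first base gone it does not begin with the 16 bases and is outside the gathered reads.

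Gathering changed how the groups lay for miR-223-3p. In CPM of gathered reads it stood at 764, 2194 and 4126 in LPS+AS-IV, 5004, 1515 and 6204 in LPS, and 5110, 5295 and 7398 in Control. Every LPS+AS-IV library was below every Control library, while the LPS libraries overlapped both groups. Of 107 miRNAs tested on gathered reads, 10.3% lay below Control in this way. The means were 2362 ± 1687 CPM in LPS+AS-IV, 4241 ± 2436 CPM in LPS and 5934 ± 1270 CPM in Control (SD, n = 3 each). With the tags of shifted 5′ end counted as well, LPS+AS-IV had 859, 2240 and 5066 CPM, against 5132, 5835 and 7412 CPM in Control, so the gap nearly closed.

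The separation depended on scaling within miRNA reads. Per 1000000 assigned reads of all kinds, gathered miR-223-3p was 2.52, 31.7 and 653 in LPS+AS-IV, and 64.5, 61.3 and 121 in Control. On that scale the groups overlapped, but through LPS+AS-IV 3 alone. The other LPS+AS-IV libraries stayed below every Control library. With LPS+AS-IV 3 in it, the LPS+AS-IV mean was the higher, 229 (SD 367) against 82.1 in Control. Marker sums of other cells differed between the same groups. In the table the erythroid and platelet sum (mainly miR-451-5p) and the mesenchymal sum (mainly miR-127-3p) were lower in LPS+AS-IV than in Control without overlap. The liver and serum sum (mainly miR-122-5p) was higher without overlap. The other tested names of the last 2 lists went the other way by edgeR log2 fold change. miR-199a-3p had 1.84 (SE 3.02) beside -2.37 (SE 1.32) for miR-127-3p. miR-192-5p had -0.18 (SE 3.07) beside 1.39 (SE 0.78) for miR-122-5p. The share of all miRNAs that separated so in the table is not given here. The part of these cells, of depth and of miRNA content per library in the difference was not tested. In the table's own reads the same comparison overlapped too, with 1119 ± 987 CPM in LPS+AS-IV, 1157 ± 2005 CPM in LPS and 865 ± 594 CPM in Control (SD, n = 3 each).

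**Figure D3:**
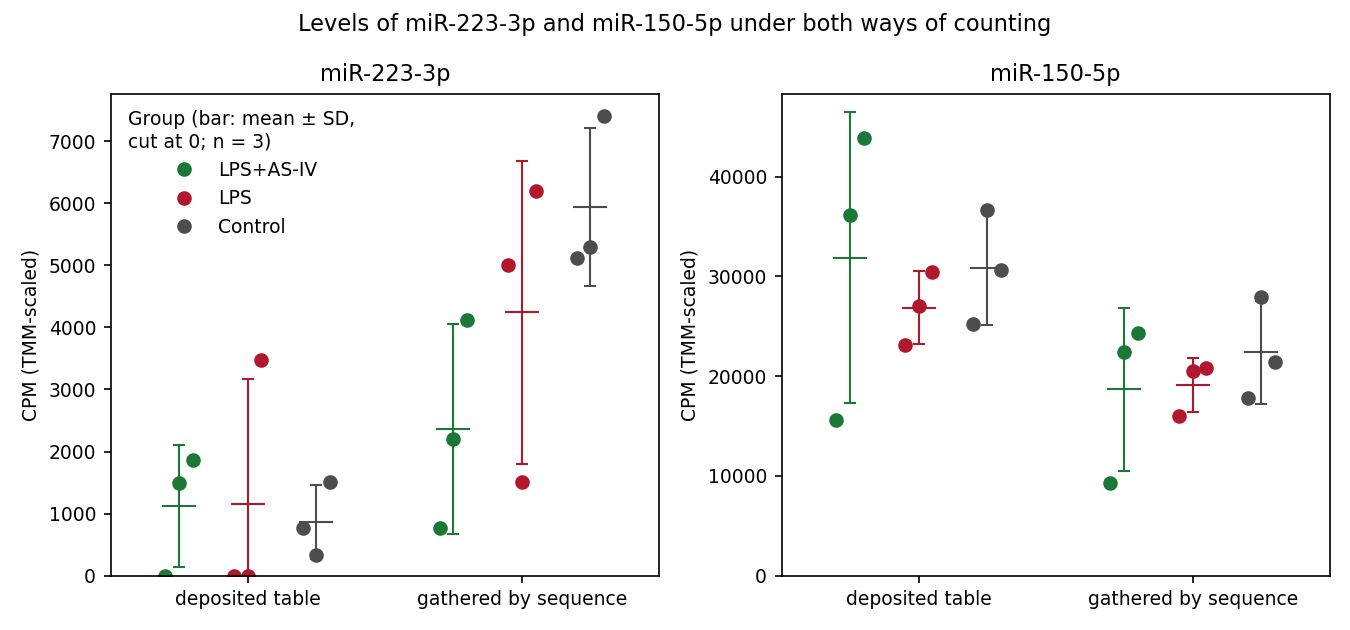
TMM-scaled CPM of miR-223-3p and miR-150-5p in the deposited table and in reads gathered by sequence, with points for libraries and bars for the mean ± SD of 3 libraries, cut at 0. In gathered reads the LPS+AS-IV libraries lie between 764 and 4126 CPM for miR-223-3p, below the Control libraries at 5110 to 7398 CPM, whereas the groups overlap in the table and for miR-150-5p.

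In CPM, gathered miR-150-5p stood at 9327, 22379 and 24320 in LPS+AS-IV, 16032, 20524 and 20787 in LPS, and 17776, 27968 and 21439 in Control. LPS+AS-IV 1 was the lowest of the 9 libraries, as it was in the table, and the groups overlapped. The most abundant tag, printed above, held 72.3% of the reads named or gathered as miR-150-5p and was the leading tag in every library. A longer tag with a 3′ T, tctcccaacccttgtaccagtgt, had 3144 reads in all 9 libraries. Another with a 3′ A, tctcccaacccttgtaccagtga, had 2986 reads in 6 libraries, of which 2767 were in LPS+AS-IV 3. Both were labelled hairpin.

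How lymphoid or myeloid the RNA looked can be read as the number of miR-150-5p reads per read of miR-223-3p, and this number turned on the counting. In the table it was 24.2 in the second and 23.5 in the third LPS+AS-IV library, 8.77 in LPS 3, and 32.8, 113 and 20.4 in Control. In the 3 libraries where miR-223-3p had 0 reads it was at least 73.0 in LPS+AS-IV 1, and at least 217 and 532 in LPS 1 and LPS 2, against the floor of 3 reads. The table thus put miR-150-5p far above miR-223-3p in every library.

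Counted by sequence the excess was smaller. The number was 12.2, 10.2 and 5.89 in LPS+AS-IV, 3.20, 13.6 and 3.35 in LPS, and 3.48, 5.28 and 2.90 in Control. The exact 95% counting interval was 8.05 to 19.4 in LPS+AS-IV 1 and 5.71 to 6.09 in LPS+AS-IV 3, so the libraries of a group differed by more than counting error. All LPS+AS-IV libraries lay above all Control libraries by this count. With tags of shifted 5′ end included LPS+AS-IV 3 fell to 4.81 and lay below Control 2 at 4.85, so the groups then overlapped. No test was made on this ratio, and the median over the 9 libraries was 32.8 in the table, with the 3 libraries at 0 entered at their lower bounds, and 5.28 in gathered reads. With mature and hairpin labels alone it was 16.9, the Rfam label being left out. Ligation and amplification efficiencies of the 2 sequences were not measured here, so the ratio compares reads and not molecules.

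**Figure D4:**
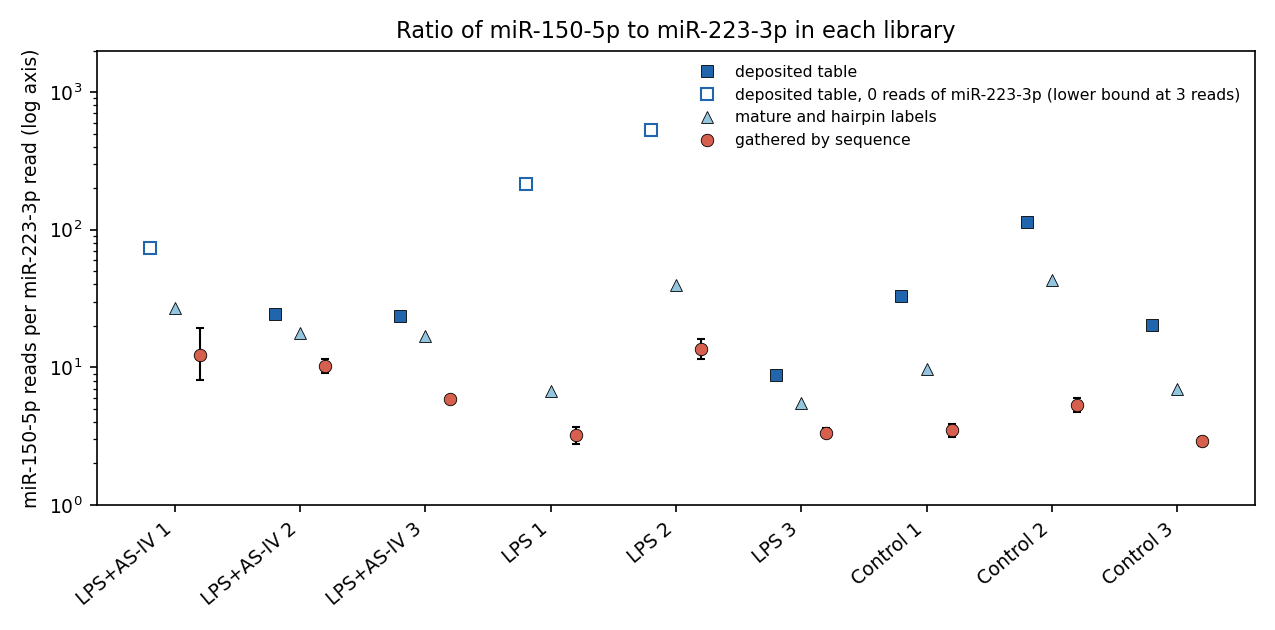
Reads of miR-150-5p per read of miR-223-3p in each library on a log axis, in the deposited table, with mature and hairpin labels, and in reads gathered by sequence (bars: exact 95% counting interval). Open squares are lower bounds for the 3 libraries that the table lists at 0, and all 9 libraries come down to between 2.90 and 13.6 when reads are gathered by sequence.

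The arms of miR-342, whose gene lies within Evl, behaved unlike each other. miR-342-3p had 0, 67 and 1322 reads in the table in LPS+AS-IV, 0, 1 and 110 reads in LPS, and 54, 0 and 1 reads in Control. Gathered by sequence it had 0, 174 and 1327 reads in LPS+AS-IV, 0, 1 and 334 in LPS, and 134, 67 and 83 in Control. Gathering thus found it in all 3 Control libraries, while 1 LPS+AS-IV and 1 LPS library stayed at 0. Of its gathered reads 93.9% matched the hairpin to the last base, and 73.3% were labelled mature.

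miR-342-5p had 4, 0 and 9 reads in the table in LPS+AS-IV, 0 reads in each LPS library, and 2, 73 and 0 reads in Control. By sequence it had 1640 reads, 18.6 times the table's 88, because a tag with an untemplated A at its 3′ end was labelled hairpin. That tag is shown as it held nearly all reads of this arm.
miR-342-5p, 24 nt with an added A: aggggtgctatctgtgattgaggA
It had 1551 reads, of which LPS+AS-IV 3 held 1547 and LPS+AS-IV 2 the other 4. A tag that starts 1 base later, ggggtgctatctgtgattgag, had 129 reads, all in Control 3 and labelled hairpin. With these the arm had reads in the 3 LPS+AS-IV and the 3 Control libraries and 0 reads in the 3 LPS libraries. Against the floor of 3 reads per library, mean gathered miR-342-5p was at least 14.6-fold higher in LPS+AS-IV than in LPS. Without LPS+AS-IV 3 the mean was 78.9 CPM, from 4 reads in each library. LPS+AS-IV 2, at 30.5 CPM, lay under the LPS floor of 37.2 CPM, so no secure bound was left. The arm was at least 10.6-fold lower in LPS than in Control. Without Control 2, which held 73 of the 75 gathered Control reads, the Control mean was 11.0 CPM. That is under the LPS floor, and no bound was left. With the shifted tag of Control 3 counted, the bound was at least 19.2-fold with all Control libraries and 13.2-fold without Control 2. Every LPS+AS-IV library was listed with more than every LPS library, as for 5.61% of the 107 miRNAs tested on gathered reads. With LPS+AS-IV 2 under the LPS floor, this order was not secure. Control 1 held 2 reads, under the floor, and 2 of the LPS+AS-IV libraries held 4 each, so presence in them was not secure. The unadjusted p of edgeR's quasi-likelihood test on gathered reads was 0.0316 in LPS+AS-IV against LPS and 0.0370 in LPS against Control, with Benjamini-Hochberg adjusted values of 0.675 and 0.495. Where a group is at 0 the fitted change gives no precise size. As LPS had 0 reads, the arm passed the low-count filter only through the other groups, so these p-values are no separate support. The endothelial, mesenchymal and erythroid marker sums of the table, led by miR-126a-3p, miR-127-3p and miR-451-5p, were lower in LPS than in Control without overlap. The share of all miRNAs that separated so is not given here, and the part of these sums was not tested.

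miR-142, the mark shared by blood cells, was almost absent. miR-142-5p had 0, 0 and 1 reads in the table in LPS+AS-IV, 0, 0 and 47 reads in LPS, and 54, 0 and 1 reads in Control. miR-142-3p had 0 reads in LPS+AS-IV, 14, 0 and 0 reads in LPS, and 0, 0 and 81 reads in Control, all 95 from 1 tag labelled hairpin, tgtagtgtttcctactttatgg, that stops 1 base short of the RefSeq arm. Apart from single reads, both arms thus appeared as blocks of 14 to 81 reads in a few libraries, and where a library had reads of both arms, the 5p arm had 1 read beside 14 of the 3p arm in LPS 1 and 2 beside 81 in Control 3, hairpin labels counted. A count of 0 in the table allowed a share of up to 0.0194% in LPS+AS-IV 1, and up to 0.000549% in the far deeper LPS+AS-IV 3.

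For the comparisons between groups, edgeR's quasi-likelihood test was fitted over the 94 miRNAs of the table that passed the low-count filter. Of the 6 members, miR-150-5p, miR-223-3p and miR-342-3p passed the filter. At a Benjamini-Hochberg adjusted p under 0.05, 0 of these 3 were called in each comparison. The share called of all tested miRNAs was 0% in LPS+AS-IV against LPS, 2.13% in LPS+AS-IV against Control and 1.06% in LPS against Control. At an unadjusted p under 0.05 there were 0 members, beside 3, 3 and 6 of all miRNAs, and DESeq2 also called 0 members.

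In LPS+AS-IV against LPS, the comparison that asks whether astragaloside IV altered the response, miR-150-5p had a log2 fold change of 0.25 (SE 0.38), miR-223-3p -0.042 (SE 2.48) and miR-342-3p 1.04 (SE 2.79). In LPS+AS-IV against Control it was 0.049 (SE 0.38), 0.38 (SE 2.48) and 1.64 (SE 2.84) in the same order of miRNAs. In LPS against Control, which asks what LPS did, it was -0.20 (SE 0.38), 0.42 (SE 2.49) and 0.60 (SE 2.78). The edgeR adjusted p was at least 0.963 for each of these. Only the SE of miR-150-5p was small, and a change of several-fold in the other members would not have been detectable in the table's counts.

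The members' median log2 fold change was 0.25, 0.38 and 0.42 in LPS+AS-IV against LPS, LPS+AS-IV against Control and LPS against Control, beside 0.19, 0.21 and -0.038 over all miRNAs tested. With library sizes taken from all assigned reads, the median of all miRNAs was 1.5 in LPS+AS-IV against LPS and 1.65 in LPS+AS-IV against Control. On that scale miR-150-5p had 2.28 and 2.42 in the same comparisons, with an edgeR adjusted p of 0.587 and 0.554.

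On gathered reads 4 members were tested, miR-342-5p with them, and 0 were called, as were 0 of all 107 miRNAs in each comparison, where 6, 2 and 8 had an unadjusted p under 0.05. miR-223-3p had a log2 fold change of -0.84 (SE 0.67, edgeR adjusted p = 0.978) in LPS+AS-IV against LPS. It had -1.32 (SE 0.68, unadjusted p = 0.0748, edgeR adjusted p = 0.977) in LPS+AS-IV against Control, and -0.48 (SE 0.67, edgeR adjusted p = 0.992) in LPS against Control. Its SE was thus much smaller than in the table. miR-150-5p had -0.033, -0.26 and -0.23 (SE 0.37 each) in the same order, and miR-342-3p -0.011, -0.28 and -0.27 (SE 2.01 each). The comparisons share libraries and so are not independent of each other.

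**Figure D5:**
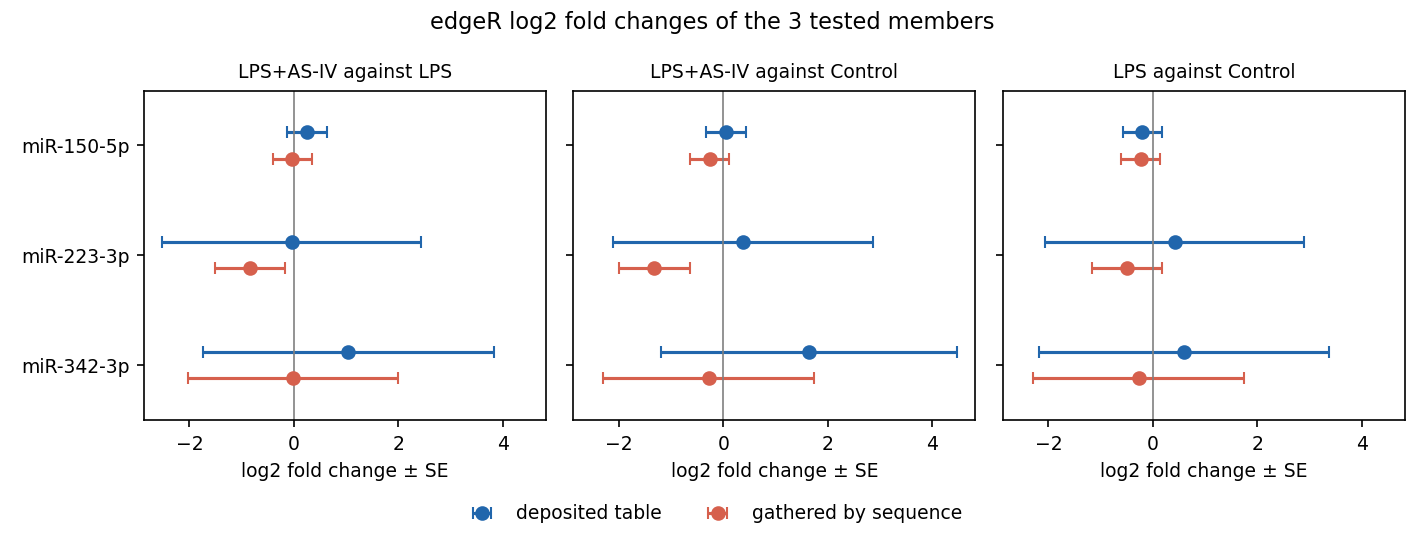
edgeR log2 fold change ± SE of the 3 members tested in the deposited table, beside the same members in reads gathered by sequence, in each comparison. The bars of miR-223-3p shrink from an SE of about 2.48 in the table to about 0.67 in gathered reads, and no value passed the test.

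The members were set beside lists of miRNAs that mark other cells. The lymphocyte list, led by miR-181a-5p, miR-150-5p and miR-181b-5p, summed to between 11.7% and 21.8% of all table reads in LPS+AS-IV, 15.6% and 19.1% in LPS, and 13.0% and 17.1% in Control. The myeloid list, led by miR-146a-5p, miR-24-3p and miR-23a-3p, held between 4.56% and 11.2%, 5.04% and 6.38%, and 5.97% and 9.32% in the same order of groups. The lymphocyte list also counts miR-155-5p (mean share 0.241%) and both arms of miR-342, which is found in lymphoid and myeloid cells. miR-181a-5p alone averaged 11.3% of the table and is also expressed in other tissues. Several myeloid names are broadly expressed, so neither sum is a measure of cells. In reads of the table the lymphocyte sum was 1.70, 1.06 and 4.79 times the myeloid sum in LPS+AS-IV, 2.56, 3.44 and 2.99 times in LPS, and 1.39, 2.76 and 2.37 times in Control.

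The myeloid list gained more than the lymphocyte list when reads were gathered by sequence. miR-21-5p, abundant in macrophages and many other cells, had 31221 gathered reads against 1683 in the table. The lymphocyte sum was then 0.994, 0.578 and 1.94 times the myeloid sum in LPS+AS-IV, 0.971, 1.26 and 1.06 times in LPS, and 0.754, 1.21 and 0.981 times in Control. The median over the 9 libraries was 2.56 in the table and 0.994 in gathered reads, and no test was made on it. Gathered reads of miR-146b-5p are counted within those of miR-146a-5p, which shares its first 16 bases and is on the same list. For the same reason gathered miR-23a-3p holds miR-23b-3p and gathered miR-27a-3p holds miR-27b-3p, which are not on the list. Their gathered mature-labelled reads were 9406 and 3697, beside 8952 and 3147 reads of miR-23a-3p and miR-27a-3p in the table. The gathered myeloid sum thus includes some reads from off the list.

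As to the labelled cell type, miR-511-3p and miR-511-5p, which mark macrophages, were without an entry in the table and miR-142-5p was near 0. Tags of miR-511 were not gathered by sequence, so whether it was present under other labels was not checked. Other members of the myeloid list were present in all 9 libraries, with a mean share of 2.76% for miR-146a-5p, 1.93% for miR-24-3p and 1.42% for miR-23a-3p, as was gathered miR-223-3p.

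The pan-leukocyte list, which is miR-142, held at most 0.000183% in LPS+AS-IV, 0.0763% in LPS and 0.128% in Control. By contrast the erythroid and platelet list, nearly all miR-451-5p and miR-486, held between 3.04% and 3.54% in LPS+AS-IV, 2.72% and 3.97% in LPS, and 4.07% and 4.78% in Control. Every Control library was above every other library in this sum, though the closest values were 4.07% in Control and 3.97% in LPS. The same order was seen in gathered reads. There the list held between 6.40% and 7.01% in LPS+AS-IV, 4.25% and 7.07% in LPS, and 8.86% and 11.4% in Control. In the table the mesenchymal list was mainly miR-127-3p, with a mean share of 0.429% beside 0.0549% for miR-199a-3p. The list held between 0.149% and 0.359% in LPS+AS-IV, 0.126% and 0.216% in LPS, and 0.843% and 1.31% in Control. Control thus again stood above both groups in this sum. By edgeR, miR-199a-3p had a log2 fold change of 1.84 (SE 3.02) in LPS+AS-IV against Control and -0.64 (SE 2.95) in LPS against Control. In gathered reads it was 0.495% to 1.08%, 0.314% to 0.548% and 0.993% to 1.68%, where LPS+AS-IV and Control overlapped.

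The endothelial list was nearly all miR-126a-3p (mean share 0.735%). It held between 0.415% and 1.23% in LPS+AS-IV, 0.195% and 0.472% in LPS, and 0.745% and 1.38% in Control. LPS thus lay below Control without overlap. The liver and serum list was mainly miR-122-5p (mean share 0.444%). It held between 0.465% and 0.558% in LPS+AS-IV, 0.323% and 1.02% in LPS, and 0.143% and 0.356% in Control. LPS+AS-IV thus lay above Control without overlap, though miR-192-5p of this list had an edgeR log2 fold change of -0.18 (SE 3.07). Both separations also held in gathered reads, where miR-122-5p includes miR-122b, which begins alike and is not on the list. The epithelial and mesothelial list held at most 0.165% in any library. Of the 8 lists, 7 had members that could be tested, and edgeR called 0 of these members in each comparison. No share over all miRNAs is given beside the separations of these sums, so they only describe 3 libraries per group. The part of these other cells in the levels of the members was not tested.

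Across the 9 libraries, log2 CPM of miR-223-3p in the table correlated with both other tested members. That of miR-150-5p correlated with miR-342-3p less closely (Pearson r 0.51), as a description over points that share depth and library. The table lists miR-223-3p at 0 in LPS+AS-IV 1, LPS 1 and LPS 2, where its reads carried other labels. There miR-342-3p had 0, 0 and 1 reads, in the table and by sequence alike. No correlation was computed on gathered reads, so the part of labels in these r values was not tested. miR-223-3p was most like miR-21-5p (0.77), miR-342-3p (0.75) and miR-150-5p (0.70). miR-150-5p was most like miR-223-3p, miR-199a-3p (0.66) and miR-139-5p (0.60), and miR-342-3p was most like miR-223-3p, miR-877 (0.65) and let-7g-5p (0.63). The median r with all tested miRNAs was between -0.11 and -0.010 for these members.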

How the data were processed

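Small RNA was sequenced on the BGISEQ-500 from exosome RNA of 9 libraries, per the labels' protocols. The authors deposited read counts per mature miRNA, which were used as they stand, and per library the count of each distinct tag with a label and a score, per the file headers. Summed mature tags gave the table back for all members. They differed for 3 other names in Control 1 and for 3 in Control 3. A further deposited column, headed exp and also whole-number counts, entered an alternative. Its making, adapter trimming and annotation release were not given in the sources used here. Bowtie2 and Rnor_6.0 are named, without a role, per the submitters' processing notes. Sequences and positions are those of RefSeq on GRCr8, which is not that build.

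The main test was edgeR 4.0.16 (R 4.3.3, quasi-likelihood, TMM, filterByExpr, 1 fit over the 9 libraries, Benjamini-Hochberg over 94 miRNAs, threshold 0.05). The other 107 miRNAs fell below the filter. The common biological coefficient of variation was 1.42. An SE is the log2 fold change divided by the root of the test's F. The script was tested on simulated counts. DESeq2 1.42.0, other scalings, counts and filters, a replicate block and leaving out each library were alternatives. Gathered reads are tags of any label that begin with the first 16 bases of a miRNA's most abundant mature tag (for miR-142-3p, of its RefSeq sequence), and were added after the data were seen. Correlations used log2 CPM of the table's counts with a prior count of 2. Tails were at most 2 bases beyond the RefSeq hairpin.

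Named were all members, up to 3 miRNAs per marker list by mean share, the 3 nearest miRNAs of each tested member, and leading tags. Tags printed beyond that rule were chosen after their values were seen. The members and lists were chosen with earlier results of these data known.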

Additional observations from a re-analysis of the deposited data

Results flagged for a closer look

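miR-342-5p reads that the table does not count, being labelled hairpin, held 0.0508% ± 0.0854 of gathered miRNA reads in LPS+AS-IV (SD, n = 3, from 0% to 0.149%), above the highest Control library at 0%. They came mainly from 1 tag with an added A, with 1547 reads in LPS+AS-IV 3. Control 3 held 129 hairpin-labelled reads of the same arm that start 1 base later and are outside the gathered reads, so the difference from Control rests on the rule for the 5′ end.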

How the results depend on the processing

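No member was called under any setting run, over 305 fitted log2 fold changes, of which 54 had the other sign than the value reported. The smallest adjusted p was 0.0996, for miR-342-5p by DESeq2 on gathered reads in LPS+AS-IV against LPS. Counts of all miRNAs called moved. In LPS against Control, with 1 as reported, they were 2 with library totals, no filter, the exp columns or the replicate block, 3 with DESeq2 or the 2 groups alone, 0 with each tag given to 1 miRNA or gathered reads, and 1 to 3 without single replicates. In LPS+AS-IV against LPS, with 0 as reported and 3 at an unadjusted p under 0.05 by edgeR, they were 1 with no filter or the replicate block, 2 with DESeq2, and 0 to 2 without single replicates. In LPS+AS-IV against Control, with 2 as reported, they were 0 with each tag given to 1 miRNA or gathered reads, and 2 to 3 without single replicates. The cause was not tested.

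Signs turned as follows, as log2 fold changes. miR-150-5p had 0.14 in LPS against Control with all assigned reads as library size. In LPS+AS-IV against Control it had -0.14 with library totals, -0.069 with the exp columns, -0.058 with each tag given to 1 miRNA, -0.20 with mature and hairpin tags, -0.10 with the 2 groups alone, -0.038 with the replicate block and -0.26 in gathered reads, and in LPS+AS-IV against LPS -0.033 in gathered reads (0.026 there with library totals). miR-223-3p had -3.28 with the replicate block and -0.48 in gathered reads in LPS against Control. In LPS+AS-IV against LPS it had 2.62 with all assigned reads, 0.056 with no filter and 2.45 with the replicate block, and in LPS+AS-IV against Control -0.80 with mature and hairpin tags, -0.83 with the replicate block and -1.32 in gathered reads. miR-342-3p had -1.69 with mature and hairpin tags, -1.28 with the replicate block and -0.27 in gathered reads in LPS against Control. It had -0.011 in gathered reads in LPS+AS-IV against LPS (1.88 there with the replicate block), and -0.50 with mature and hairpin tags and -0.28 in gathered reads in LPS+AS-IV against Control. Gathered miR-342-5p had -0.28 in LPS+AS-IV against Control with shifted tags, beside 0.48 without them.

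Without single replicates, the log2 fold changes in LPS+AS-IV against LPS, LPS+AS-IV against Control and LPS against Control had these ranges. miR-150-5p in the table ran -0.22 to 0.47, -0.35 to 0.48 and -0.23 to 0.019. miR-223-3p in the table ran -0.76 to 9.84, -0.28 to 1.04 and -9.46 to 1.19. miR-342-3p in the table ran -0.34 to 6.85, 0.29 to 7.22 and -5.22 to 6.22. miR-150-5p in gathered reads ran -0.39 to 0.15, -0.64 to 6.0e-05 and -0.39 to 0.055. miR-223-3p in gathered reads ran -1.72 to -0.58, -2.12 to -0.98 and -0.86 to -0.072. miR-342-3p in gathered reads ran -0.79 to 7.13, -0.83 to 0.21 and -7.54 to 0.40. miR-342-5p in gathered reads ran 5.88 to 10.37, -2.46 to 5.40 and -10.02 to -4.45. Gathered miR-223-3p kept its sign in each of these fits.

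The labels do not say whether replicate numbers pair the libraries. Deviations from the group means correlated at -0.12 to 0.15 between libraries of the same number. Libraries of unlike number were not set beside these, so pairing could not be decided, and block values describe a shared number only. Depth limits all members but miR-150-5p, since 3 reads in LPS+AS-IV 1 were 214 CPM.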
